A study of Mus musculus with 6 samples.

Results

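The genes described here carry the names of nuclear subunits of respiratory complexes III and IV and of ATP synthase, measured by RNA sequencing in Treg cells with and without *Junb*. They were taken by name: every row of the expression table whose gene name starts with Uqcr, Atp5, Cox4, Cox5, Cox6, Cox7 or Cox8, without pseudogene names, and whose FPKM (fragment density per unit of transcript length and of mapped fragments) averaged at least 1 over the 6 libraries. Of 45 rows with such a name, 40 reached that mean, out of 37305 genes in the table, and 11781 genes of the whole table reached it. The 40 genes comprised 8 named for complex III, 14 for complex IV and 18 for ATP synthase, of which 8, 13 and 15 encode a subunit. The other 4 (*Cox4nb*, *Atp5l2*, *Atp5s* and *Atp5sl*) encode no subunit and were kept in the counts, as the rule took them in. They were thus selected on their mean FPKM over both genotypes together, and that mean is given here as a description only. Just inside the limit lay *Atp5g2* (mean 1.11 FPKM), *Atp5l2* (1.21 FPKM) and *Cox7a1* (1.37 FPKM). The 5 rows outside it were *Cox6b2* (0.497 FPKM), *Cox4i2* (0.108 FPKM), *Cox8b* (0.0232 FPKM), *Cox7b2* (0.00035 FPKM) and *Cox8c* (0 FPKM).

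The cells were FACS-sorted Treg cells, described by the study as CD4+CD25+ cells from spleen. *Cd4*Cre*Junb* fl/fl mice gave the 3 *Junb*-deficient libraries and *Junb* fl/fl mice the 3 controls, both on the C57BL/6 background. Both genotypes therefore carried *Junb* flanked by loxP sites, and only the first carried Cre. Because the *Cd4* promoter is active in all developing T cells of the alpha-beta lineage, *Junb* was removed from conventional T cells as well as from Treg cells. The labels give neither age nor sex nor treatment, and do not say whether a library came from 1 animal or from several, so p-values measure the spread between these libraries, which may be technical. In bulk RNA, fewer cells of a type and less RNA per cell cannot be told apart.

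Mitochondria make most of the ATP of a resting cell through a chain of membrane complexes. Complex III (ubiquinol-cytochrome c reductase) passes electrons from ubiquinol to cytochrome c, and complex IV (cytochrome c oxidase) passes them on to oxygen; both pump protons across the inner membrane. ATP synthase lets the protons flow back through a turning ring of c subunits and uses that rotation to make ATP. Most of their subunits are encoded in the nucleus, and a few core subunits in the mitochondrial genome. Treg cells are known for relying on oxidative phosphorylation more than activated conventional T cells do.

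*Junb* itself was listed at 180, 49.1 and 37.8 FPKM in the *Junb*-deficient libraries, against 921, 298 and 256 FPKM in the controls, so all 3 lay below the controls. *Foxp3*, the defining factor of Treg cells, was at 153, 130 and 135 FPKM in *Junb*-deficient cells and at 161, 123 and 115 FPKM in controls. Of the 6 Treg cell markers listed, only *Ctla4* passed the thresholds given below, as lower. It was at 153, 193 and 137 FPKM in *Junb*-deficient cells, against 266, 251 and 265 FPKM in controls (log2 difference -0.70, limma adjusted p = 0.834). The libraries numbered 1 of both genotypes stood apart. The 5 myeloid markers summed to 51.9 FPKM in *Junb*-deficient 1 and 4.95 and 9.37 FPKM in the other *Junb*-deficient libraries, against 70.1 FPKM in control 1 and 7.14 and 12.3 FPKM in the other controls. None of the 5 passed the test between genotypes. FPKM totals over all genes ran from 528608 to 657992 in *Junb*-deficient libraries and from 496684 to 862049 in controls, with a number 1 library lowest in each. Read counts are not part of these values, which leaves counting errors unknown.

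The subunit genes were among the more abundant messages of these cells. By mean over the 6 libraries, 24 of the 40 lay at or above 100 FPKM and 7 below 10 FPKM. *Cox4i1*, the main form of complex IV subunit 4, was the highest at 965 FPKM. It was followed by *Atp5e*, the epsilon subunit of the ATP synthase stalk (660 FPKM), and by *Uqcrh*, the acidic hinge protein of complex III (651 FPKM). *Atp5b*, the catalytic beta subunit, came next at 485 FPKM. *Cox4i1* (512 to 1620 FPKM) was above both of these in each of the 6 libraries, while *Atp5e* was above *Uqcrh* in 3 of them and below it in the other 3. Together the 40 rows took 0.901%, 1.09% and 1.06% of the FPKM total in *Junb*-deficient libraries, against 1.10%, 1.20% and 1.31% in controls. The genotypes did not overlap in that share, although *Junb*-deficient 2 and control 1 nearly met. For ATP synthase alone the share was 0.405% to 0.431% in *Junb*-deficient libraries and 0.475% to 0.495% in controls, while for complexes III and IV the ranges overlapped.

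**Figure D1:**
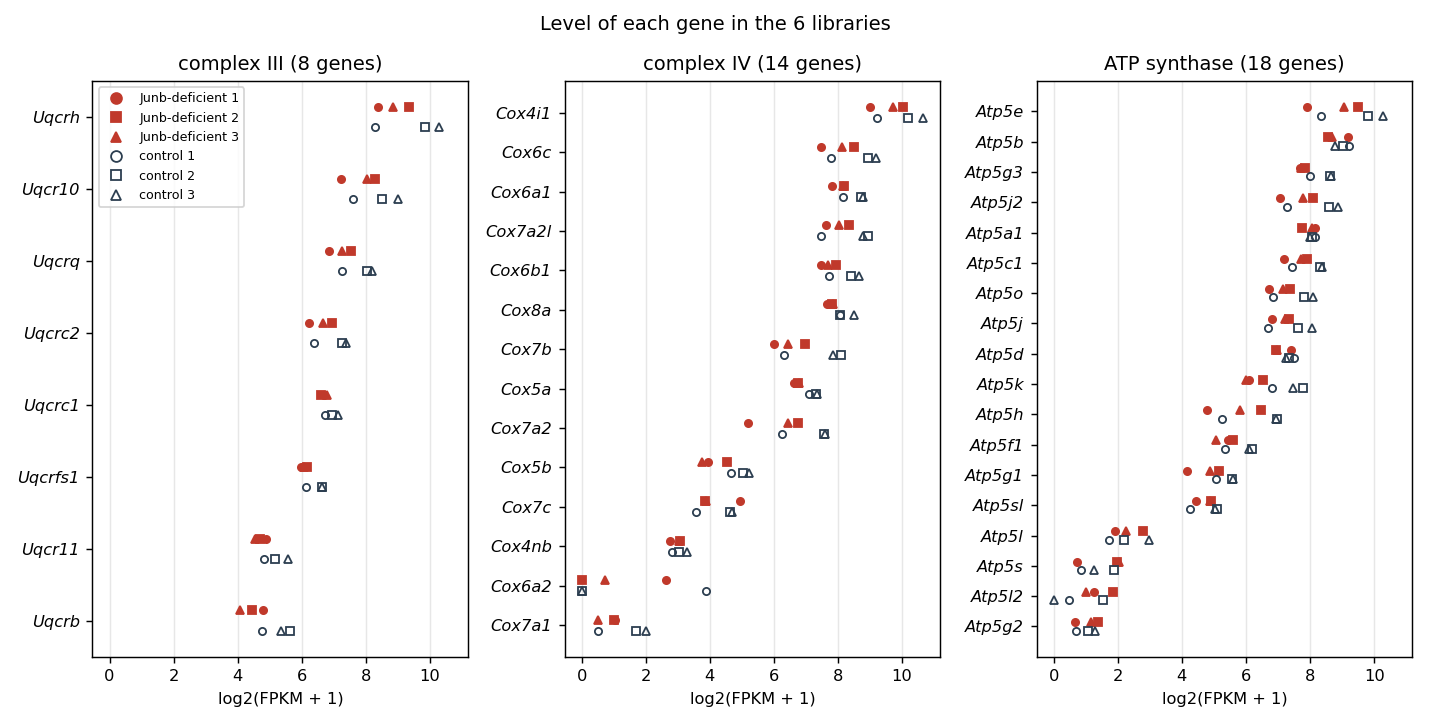
Level of the 40 genes in each library as log2(FPKM + 1), by complex, with *Junb*-deficient libraries as filled red symbols above the controls as open dark symbols. Circles, squares and triangles are libraries 1, 2 and 3. For most genes the circles of both genotypes lie left of the squares and triangles, as for *Uqcrh* (330 FPKM in *Junb*-deficient 1 and 312 FPKM in control 1).

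Between genotypes, the subunit genes leaned to lower values in *Junb*-deficient Treg cells. As the set was chosen with earlier results of these data known, this lean is a description and not a test. The difference on log2(FPKM + 1), *Junb*-deficient minus control, was negative for 36 of 40 genes, against 56% of all 11781 genes tested. Short genes leaned lower in general, and the 40 are short (median exon length 1234 bases, against 3341 over all genes). Under 1000 bases 71% of all genes were negative, beside 13 of 16 in the set. At 1000 to 2000 bases 74.5% were, beside 12 of 13. At 2000 to 4000 bases 62% were, and at 4000 or more 39.4%, beside 7 of 7 and 4 of 4. The median difference was -0.50 for complex III, -0.52 for complex IV and -0.38 for ATP synthase, beside -0.05 for all genes. Without the 4 genes that encode no subunit it was -0.54 for complex IV and -0.50 for ATP synthase. The study states a p under 0.05 and a log2 fold change beyond 0.5 for RNA sequencing. With these thresholds applied to the limma test used here, 5 of the 40 genes fell and 0 rose. Of all genes tested, 2.89% fell and 1.67% rose at these thresholds. With an exon length under 1000 bases 6.99% of all genes fell, beside 4 of 16 in the set. At 1000 to 2000 bases 5% fell, beside 0 of 13. At 2000 to 4000 bases 2.42% fell, beside 1 of 7, and at 4000 or more 1.27%, beside 0 of 4. No gene in the table had an adjusted p under 0.05 in limma (0 of 11781, with 636 at an unadjusted p under 0.05), and the smallest adjusted p among the 40 genes was 0.834, so each call below rests on an unadjusted p. Deviations from the genotype mean correlated between same-numbered libraries (0.57, 0.42 and 0.24 for numbers 1, 2 and 3). No label states a pairing, and *Junb*-deficient 2 correlated with control 3 (0.41) nearly as with control 2. A second fit took the library number as a blocking term, a choice drawn from these same values. It gave 17 genes lower and 1 higher, where 7.2% of all genes were lower and 3.58% higher, and still 0 of the 40 at an adjusted p under 0.05 (smallest 0.087, with 22 of the 40 at an unadjusted p under 0.05).

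The call count moved with single libraries. With every library in, 5 of the 40 genes and 340 of all genes passed as lower. Without control 1 27 of the 40 and 1500 of all genes did. Without control 2 only 2 of the 40 (221 of all genes) did, and without control 3 only 2 (203). Without *Junb*-deficient 1 only 3 of the 40 (323 of all genes) did, and without *Junb*-deficient 3 only 3 (293). Scaling each library to the same FPKM total moved the median of all genes to 0.19, which left 2 of the 40 and 100 of all genes lower. This scaling multiplies all values of a library by the same constant, so the medians minus that of all genes could hardly move with it. They were -0.44 for complex III, -0.46 for complex IV and -0.31 for ATP synthase, where they were -0.45, -0.48 and -0.34 before it. Quantile scaling, which gives every library the same distribution of values, brought them to -0.25 for complex III, -0.27 for complex IV and -0.14 for ATP synthase. It left 3 of the 40 and 262 of all genes lower.

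**Figure D2:**
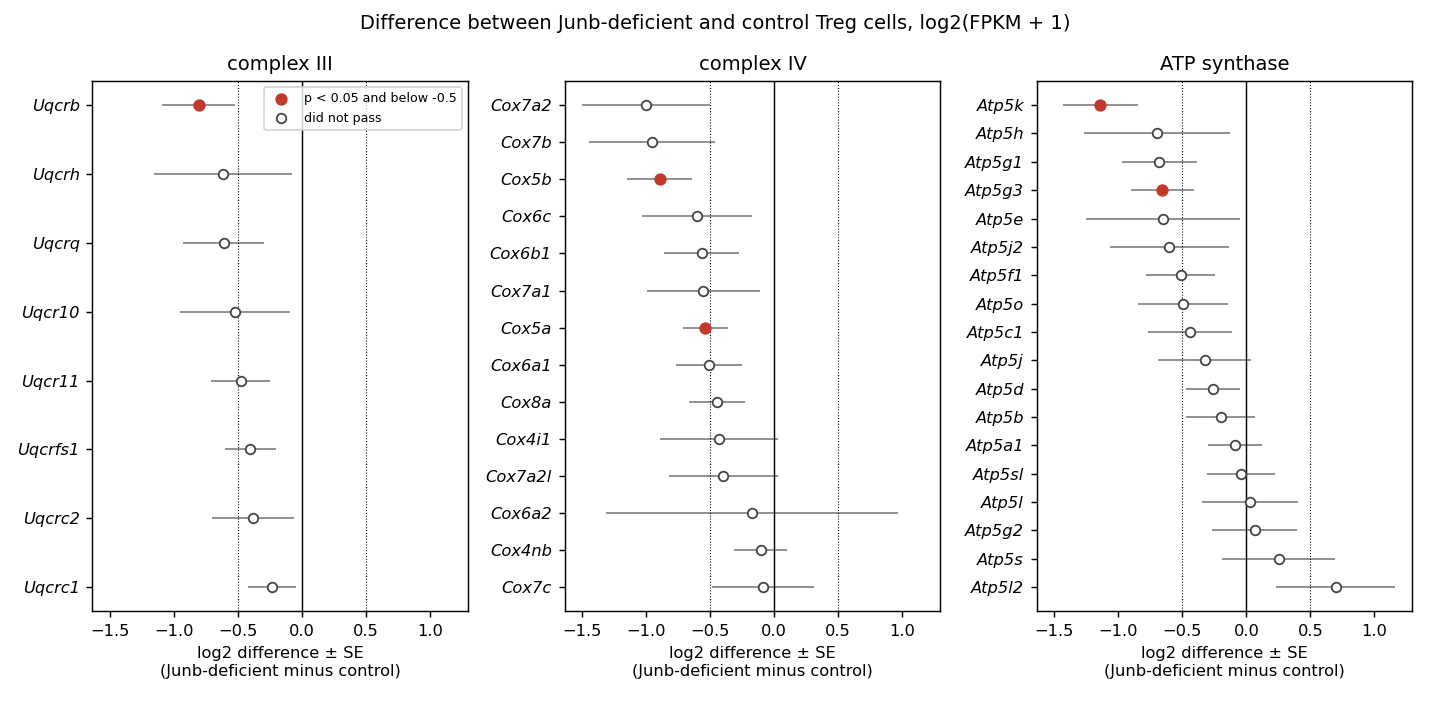
Log2 difference of each gene (*Junb*-deficient minus control, log2(FPKM + 1) scale) with its standard error from limma, 3 libraries per genotype. Filled red points passed an unadjusted p under 0.05 and a difference beyond 0.5 (dotted lines), open points did not. The 5 filled points are *Uqcrb*, *Cox5b*, *Cox5a*, *Atp5k* and *Atp5g3*, and all 8 complex III genes and all 14 complex IV genes lie left of 0.

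In complex III, 1 of 8 genes fell and 7 did not pass. *Uqcrb*, a small matrix-side subunit (chr13:67001553-67006314, minus strand, mm9), was at 26.8, 20.9 and 15.7 FPKM in *Junb*-deficient cells and at 26, 49 and 39.7 FPKM in controls. The number 1 libraries were level with each other and the difference came from numbers 2 and 3 (log2 difference -0.81 ± 0.29 SE, limma adjusted p = 0.834). Leaving out *Junb*-deficient 2 (-0.82), *Junb*-deficient 3 (-0.62), control 2 (-0.61) or control 3 (-0.76) ended this call, as did scaling to the same total (-0.56) and the length correction described further on (-0.58). *Uqcr11*, the smallest subunit, was at 28.7, 24.9 and 22.2 FPKM in *Junb*-deficient cells, against 27.2, 35.2 and 46.5 FPKM in controls (-0.48 ± 0.23, limma adjusted p = 0.834), and did not pass.

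The abundant *Uqcrh* was at 330, 646 and 458 FPKM in *Junb*-deficient cells, against 312, 920 and 1243 FPKM in controls. *Uqcr10*, another small subunit of the membrane part, was at 147, 313 and 262 FPKM in *Junb*-deficient cells, against 194, 360 and 514 FPKM in controls. In both, the spread within a genotype was as wide as the gap between genotypes. *Uqcrq*, a subunit next to cytochrome b, averaged 150 ± 35 FPKM in *Junb*-deficient cells and 235 ± 75 FPKM in controls (SD, n = 3 each). The Rieske iron-sulfur protein gene *Uqcrfs1*, which carries the electron to cytochrome c1, averaged 66.1 ± 4.23 FPKM in *Junb*-deficient cells and 88.8 ± 16.9 FPKM in controls. The core proteins *Uqcrc1* (103 ± 6.69 FPKM in *Junb*-deficient cells, 122 ± 17.2 FPKM in controls) and *Uqcrc2* (99.6 ± 24.6 FPKM in *Junb*-deficient cells, 133 ± 44.4 FPKM in controls) had the differences nearest to 0, at -0.24 and -0.38. The difference of *Uqcrc1* turned to 0.03 when libraries were scaled to the same total, which moved the median of all genes to 0.19. With the number as a block, *Uqcrq* (adjusted p = 0.255) and *Uqcr10* (adjusted p = 0.333) passed in addition to *Uqcrb*.

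In complex IV, 2 of 14 genes fell. *Cox5a*, a matrix-side subunit (chr9:57369039-57380231, plus strand, mm9), was at 97.5, 106 and 108 FPKM in *Junb*-deficient cells, against 137, 157 and 161 FPKM in controls. Every *Junb*-deficient value was below every control value, and the spread within each genotype was small, number 1 libraries included (-0.54 ± 0.18, limma adjusted p = 0.834). Its difference was close to the threshold of 0.5 and the call was lost without *Junb*-deficient 1 (-0.49), control 2 (-0.51) or control 3 (-0.49). Quantile scaling (-0.30), scaling to the same total (-0.28) and length correction (-0.32) brought it lower still, without a call. In total 9 of 21 alternatives ended it. *Cox5b*, the zinc-binding matrix subunit (chr1:36748332-36750230, plus strand, mm9), was at 14.3, 22.1 and 12.6 FPKM in *Junb*-deficient cells and at 24.3, 31.9 and 36.2 FPKM in controls. These did not overlap either (-0.89 ± 0.25, limma adjusted p = 0.834), but a near-identical copy of this gene held a higher value than its own row, as described further on.

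Over all 40 genes, 5 had no overlap between genotypes, all with the *Junb*-deficient libraries below (*Cox5a*, *Cox5b*, *Cox8a*, *Atp5k* and *Atp5g3*), where 6.36% of all genes tested were so arranged. *Cox8a*, the main form of subunit 8, was at 200, 222 and 231 FPKM in *Junb*-deficient cells, against 269, 268 and 361 FPKM in controls (-0.45 ± 0.22, limma adjusted p = 0.834).

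The most abundant complex IV genes did not pass. *Cox4i1* (chr8:123192190-123198109, plus strand, mm9) was at 512, 1050 and 846 FPKM in *Junb*-deficient cells, against 592, 1170 and 1620 FPKM in controls. *Cox6c*, a membrane subunit, was at 175, 358 and 280 FPKM in *Junb*-deficient cells, against 221, 487 and 577 FPKM in controls. *Cox6b1*, on the side of the intermembrane space where cytochrome c docks, was at 176, 243 and 207 FPKM in *Junb*-deficient cells, against 212, 338 and 403 FPKM in controls. In each of these 3 genes the *Junb*-deficient library was below the control of the same number in 3 of 3 pairs. The membrane subunit *Cox7b* averaged 90.6 ± 30.9 FPKM in *Junb*-deficient cells and 194 ± 103 FPKM in controls, a difference of -0.96 ± 0.49 that did not pass (limma adjusted p = 0.834). *Cox7c*, also a membrane subunit, averaged only 18.9 ± 9.19 FPKM in *Junb*-deficient cells and 20 ± 7.81 FPKM in controls. With the number as a block, *Cox7a2*, *Cox7b*, *Cox6c*, *Cox6b1* and *Cox6a1* (adjusted p from 0.087 to 0.299) passed besides *Cox5a* and *Cox5b*.

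The name rule also took in *Cox4nb*, which is not a subunit. It encodes a protein of the endoplasmic reticulum membrane complex and is named for its place beside *Cox4i1*, with 178 bases between the annotated starts of the 2 genes on opposite strands. *Cox4nb* was at 5.74, 7.4 and 7.14 FPKM in *Junb*-deficient cells, against 6.06, 7.29 and 8.84 FPKM in controls, a difference of -0.11 ± 0.21. Its number 1 libraries were lowest in both genotypes, with a smaller gap than in *Cox4i1*. The mean of both divided by the mean of the other libraries was 0.77 for *Cox4nb* and 0.47 for *Cox4i1*.

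In ATP synthase, 2 of 18 genes fell. *Atp5k* encodes subunit e of the membrane part, which helps to hold 2 ATP synthases together as a dimer (chr5:108862263-108863467, minus strand, mm9). It was at 67.5, 91.9 and 63.4 FPKM in *Junb*-deficient cells, against 111, 218 and 178 FPKM in controls. The genotypes did not overlap and the *Junb*-deficient mean was 44% of the control mean (-1.14 ± 0.29, limma adjusted p = 0.834). It was the only 1 of the 5 genes that passed under every alternative tried (21 of 21, differences from -1.41 to -0.88). *Atp5g3*, which encodes subunit c of the proton-carrying ring (chr2:73746504-73749383, minus strand, mm9), was at 207, 230 and 209 FPKM in *Junb*-deficient cells, against 252, 389 and 399 FPKM in controls. Here too the genotypes did not overlap (-0.66 ± 0.25, limma adjusted p = 0.834). The call was lost without any 1 library other than control 1 (differences from -0.70 to -0.54), and also on quantile scaling (-0.38) and on scaling to the same total (-0.39).

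In the F1 head, where ATP is made, *Atp5b*, *Atp5a1* and *Atp5d* had small differences. *Atp5b* was at 578, 376 and 407 FPKM in *Junb*-deficient cells, against 596, 516 and 438 FPKM in controls, with the number 1 libraries highest in both genotypes. The alpha subunit gene *Atp5a1* averaged 253 ± 36.4 FPKM in *Junb*-deficient cells and 267 ± 15.6 FPKM in controls. The delta subunit gene *Atp5d* averaged 138 ± 26.9 FPKM in *Junb*-deficient cells and 163 ± 14.3 FPKM in controls. The differences of these 3 genes ran from -0.26 to -0.09, and all 3 turned above 0 when libraries were scaled to the same total (0.00496 to 0.177). That scaling moved the median of all genes to 0.19, so all 3 stayed below it. The gamma subunit gene *Atp5c1*, the turning shaft, averaged 197 ± 47.1 FPKM in *Junb*-deficient cells and 273 ± 88.4 FPKM in controls. Its difference of -0.44 did not pass. *Atp5e* was at 237, 726 and 538 FPKM in *Junb*-deficient cells, against 320, 904 and 1236 FPKM in controls, so that number 1 was lowest in both. The difference of *Atp5e* was larger, at -0.65, and did not pass either.

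The 4 genes of the peripheral stalk, which holds the head still, gave differences from -0.70 to -0.33 without a call. They are *Atp5h* (subunit d), *Atp5f1* (subunit b), *Atp5o* (the oligomycin sensitivity protein) and *Atp5j* (coupling factor 6). *Atp5o* averaged 137 ± 30.8 FPKM in *Junb*-deficient cells and 202 ± 79.8 FPKM in controls, and *Atp5j* averaged 140 ± 26.1 FPKM in *Junb*-deficient cells and 187 ± 81.4 FPKM in controls. *Atp5j2*, subunit f of the membrane part, averaged 208 ± 71 FPKM in *Junb*-deficient cells and 335 ± 162 FPKM in controls. With the number as a block, *Atp5g1*, *Atp5h*, *Atp5j2*, *Atp5e* and *Atp5f1* (adjusted p from 0.21 to 0.344) passed as lower besides *Atp5k* and *Atp5g3*.

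Another 3 names in this set belong to no subunit of the enzyme. *Atp5l2* is annotated as a pseudogene and matches the 312 coding bases of *Atp5l* at 99.4% identity, so its level is uncertain. It was at 1.36, 2.61 and 1.02 FPKM in *Junb*-deficient cells, against 0.389, 1.9 and 0 FPKM in controls. It was higher in the *Junb*-deficient library in 3 of 3 pairs, and was the 1 gene called higher with the block (adjusted p = 0.343). *Atp5l2* reached the mean of 1 FPKM only through the *Junb*-deficient libraries, so its direction partly follows from how it was selected. *Atp5s* and *Atp5sl* encode proteins now named DMAC2L and DMAC2, of which human DMAC2 takes part in the assembly of complex I. *Atp5s* averaged 2.23 ± 1.36 FPKM in *Junb*-deficient cells and 1.62 ± 0.935 FPKM in controls, and *Atp5sl* averaged 26.2 ± 4.6 FPKM in *Junb*-deficient cells and 27.7 ± 8.2 FPKM in controls. The 4 genes with a positive difference were *Atp5l2*, *Atp5s*, *Atp5g2* and *Atp5l*, all at a mean under 5 FPKM.

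Several subunit genes had near-identical intronless copies elsewhere in the genome, and the copy was often listed far higher than the gene. The coding sequence of each gene was searched in the mm9 genome for matches of at least 95% identity over at least 80% of its length outside its own locus. Of 39 genes with a coding transcript, 13 had such copies, 34 in all. Of these copies, 23 had a row in the table outside the set, and *Atp5l2*, a copy of *Atp5l*, had its row within the set. In 8 of the 13, the copy rows together exceeded the row of the gene, so the row of the gene alone does not give the level of that message. The sources used here do not say how reads with several matches were counted.

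*Cox7c* shows this most simply. Its row (chr13:86184421-86186509, minus strand, mm9) averaged 19.4 FPKM over the 6 libraries, while the pseudogene *Gm12338* on chromosome 11 (chr11:75413265-75413456, minus strand) holds the same 192 coding bases with 0 differences, without introns. The rows of its copies came to 658 FPKM, 33.9 times as much. Both are shown in full because a read within the coding sequence cannot tell them apart.
Cox7c: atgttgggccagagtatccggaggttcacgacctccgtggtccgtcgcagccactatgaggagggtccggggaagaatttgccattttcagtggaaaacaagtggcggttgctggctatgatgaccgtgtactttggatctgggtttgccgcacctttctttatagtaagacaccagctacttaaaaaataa
Gm12338: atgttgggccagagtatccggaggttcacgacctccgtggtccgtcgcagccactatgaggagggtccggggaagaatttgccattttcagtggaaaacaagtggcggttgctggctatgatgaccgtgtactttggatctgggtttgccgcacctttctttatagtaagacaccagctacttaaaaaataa

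*Uqcr11* and *Gm16418* (chr1:168361836-168362006, minus strand) differ at 2 of 171 coding bases, C87T and G116A, counted from 1 at the A of the start codon, with the base of the gene first. The row of *Uqcr11* averaged 30.8 FPKM and its copy rows 174 FPKM. The differing bases are in capitals.
Uqcr11: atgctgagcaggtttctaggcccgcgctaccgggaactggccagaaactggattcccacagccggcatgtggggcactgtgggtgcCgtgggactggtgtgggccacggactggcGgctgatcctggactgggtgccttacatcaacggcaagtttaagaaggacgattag
Gm16418: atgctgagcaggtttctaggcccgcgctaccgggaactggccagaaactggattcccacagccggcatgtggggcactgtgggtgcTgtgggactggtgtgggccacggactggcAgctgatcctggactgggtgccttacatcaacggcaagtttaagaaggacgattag

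*Cox5b* and *Gm11273* (chr13:21592898-21593287, minus strand, annotated as protein-coding with 1 exon) differ at 3 of 390 coding bases, C114T, A213G and G243A. Coding bases 44 to 243 hold all 3 and are shown with the differing bases in capitals. The row of *Cox5b* averaged 23.6 FPKM and its copy row 163 FPKM.
Cox5b: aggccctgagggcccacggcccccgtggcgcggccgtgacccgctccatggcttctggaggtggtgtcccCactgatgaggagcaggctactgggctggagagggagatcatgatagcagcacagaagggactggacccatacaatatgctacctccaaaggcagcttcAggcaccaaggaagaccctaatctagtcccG
Gm11273: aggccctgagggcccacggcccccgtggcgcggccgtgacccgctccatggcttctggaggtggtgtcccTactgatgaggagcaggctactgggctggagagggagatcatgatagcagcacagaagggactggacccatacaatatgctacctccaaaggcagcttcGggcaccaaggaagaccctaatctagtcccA

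The other genes whose copy rows exceeded their own row were *Atp5h* (75.3 FPKM, copies 584 FPKM), *Atp5l* (4.2 FPKM, copies 249 FPKM), *Atp5g1* (34.4 FPKM, copies 189 FPKM), *Atp5f1* (50 FPKM, copies 127 FPKM) and *Uqcrb* (29.7 FPKM, copies 79.4 FPKM). *Atp5l* encodes subunit g, the partner of subunit e in the dimer. With copies added, the 9 genes whose copy rows came to at least 10 FPKM reached 109 to 677 FPKM, where the gene rows alone ran from 4.2 to 350 FPKM. *Cox6c* was the ninth, with 36.6 FPKM in its copy row beside 350 FPKM in its own. *Atp5o* (3.1 FPKM) and *Atp5k* (1.89 FPKM) had little in their copy rows, and the copy rows of *Cox7b* and *Atp5g2* were listed at 0. The F1 head genes, *Cox4i1*, *Cox5a*, *Atp5g3*, *Uqcrh* and the core proteins of complex III had no copy by these limits.

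**Figure D3:**
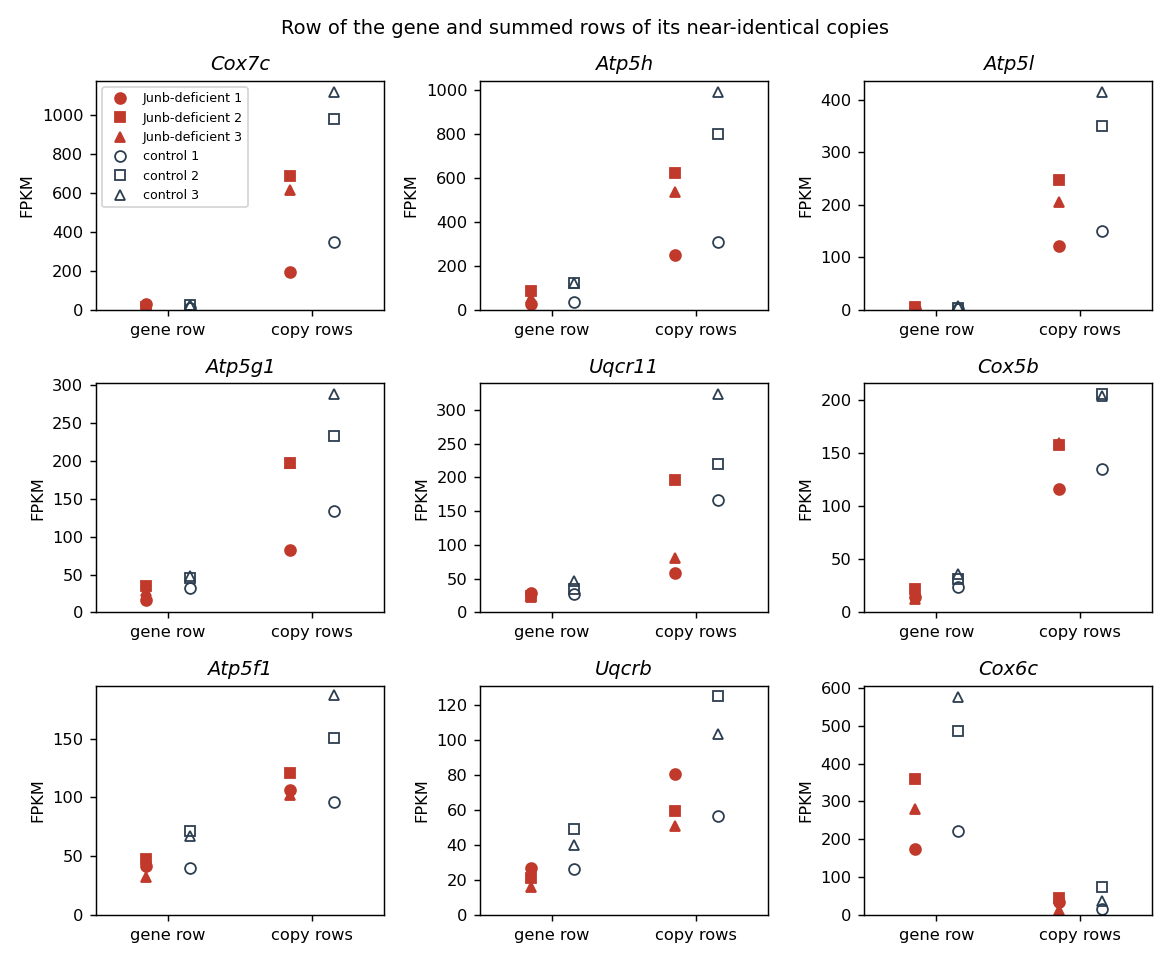
FPKM of the gene row (left) and of the summed rows of its near-identical copies (right) for the 9 genes whose copy rows averaged at least 10 FPKM, with *Junb*-deficient libraries (filled red) left of controls (open dark) and the symbol giving the library number. In 8 panels the copy rows stand above the gene row, and in the panel of *Cox6c* (350 FPKM in the gene row, 36.6 FPKM in the copy row) they stand below it.

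Summing the copy rows with the gene row, a choice made after the values were seen, changed which genes were called. *Uqcr11* came to 86.3, 221 and 103 FPKM in *Junb*-deficient cells, against 194, 255 and 370 FPKM in controls, and passed as lower (-1.06 ± 0.40, limma adjusted p = 0.835). *Cox5b* came to 131, 180 and 172 FPKM in *Junb*-deficient cells, against 159, 238 and 240 FPKM in controls. The genotypes then overlapped and the call was lost (-0.39 ± 0.25, limma adjusted p = 0.839). *Uqcrb* came to 107, 80.5 and 66.4 FPKM in *Junb*-deficient cells, against 82.9, 174 and 143 FPKM in controls, and lost its call as well (-0.61 ± 0.32, limma adjusted p = 0.835). The difference of *Atp5l* changed sign, to -0.59 ± 0.44 (limma adjusted p = 0.847), and that of *Cox7c* grew to -0.68 ± 0.59 (limma adjusted p = 0.852). In all, 4 of the 40 genes passed as lower on the summed values, *Cox5a*, *Atp5k*, *Atp5g3* and *Uqcr11*, where 339 of all genes did. Of the 40, 37 had a negative difference. Of the 27 genes without a copy row, 25 had a negative difference and 2 were called lower, with a median of -0.43.

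The isoforms of the subunits were those of non-muscle tissue. Cytochrome c oxidase has subunits with separate heart and skeletal muscle, lung or testis forms, and in these libraries the widely expressed form took nearly all of the summed FPKM of each pair. *Cox4i1* took 99.97% to 99.999% of subunit 4, over *Cox4i2*, a form of lung, which stayed at or below 0.182 FPKM. *Cox6b1* took 99.5% to 100% of subunit 6b, with *Cox6b2*, a testis form, between 0 and 1.16 FPKM. *Cox8a* took 99.9% to 100% of subunit 8, and the muscle form *Cox8b* was listed at 0 in all libraries but control 1 (0.139 FPKM).

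For subunit 7a, *Cox7a2* was at 36, 108 and 85.1 FPKM in *Junb*-deficient cells, against 75.2, 190 and 190 FPKM in controls, with the *Junb*-deficient library below its same-numbered control in 3 of 3 pairs (limma adjusted p = 0.834). The muscle form *Cox7a1* was at 1.08, 1 and 0.42 FPKM in *Junb*-deficient cells, against 0.437, 2.23 and 3.03 FPKM in controls. *Cox7a1* reached the mean of 1 FPKM only through the controls, so its direction partly follows from how it was selected. *Cox7a2l*, which encodes a related protein, was at 195, 325 and 261 FPKM in *Junb*-deficient cells, against 175, 491 and 443 FPKM in controls. Its difference of -0.40 ± 0.43 did not pass.

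For subunit 6a, *Cox6a1* was at 222, 292 and 282 FPKM in *Junb*-deficient cells, against 286, 420 and 441 FPKM in controls. The muscle form *Cox6a2* was at 5.15, 0 and 0.672 FPKM in *Junb*-deficient cells, against 13.7, 0 and 0 FPKM in controls, so that nearly all of it lay in the number 1 libraries. *Siglech*, a marker of plasmacytoid dendritic cells, was at 19.5, 0.508 and 1.91 FPKM in *Junb*-deficient cells, against 55.8, 0.147 and 0.471 FPKM in controls, and so was high in the same libraries. The 4 dendritic cell markers together came to 35.2, 1.37 and 3.95 FPKM in *Junb*-deficient cells, against 68.1, 0.69 and 1.11 FPKM in controls. Whether *Cox6a2* came from such cells was not tested. Between genotypes *Cox6a2* did not differ beyond its spread (-0.17 ± 1.14, limma adjusted p = 0.978), and its sign turned with the pseudocount and with the libraries left out.

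**Figure D4:**
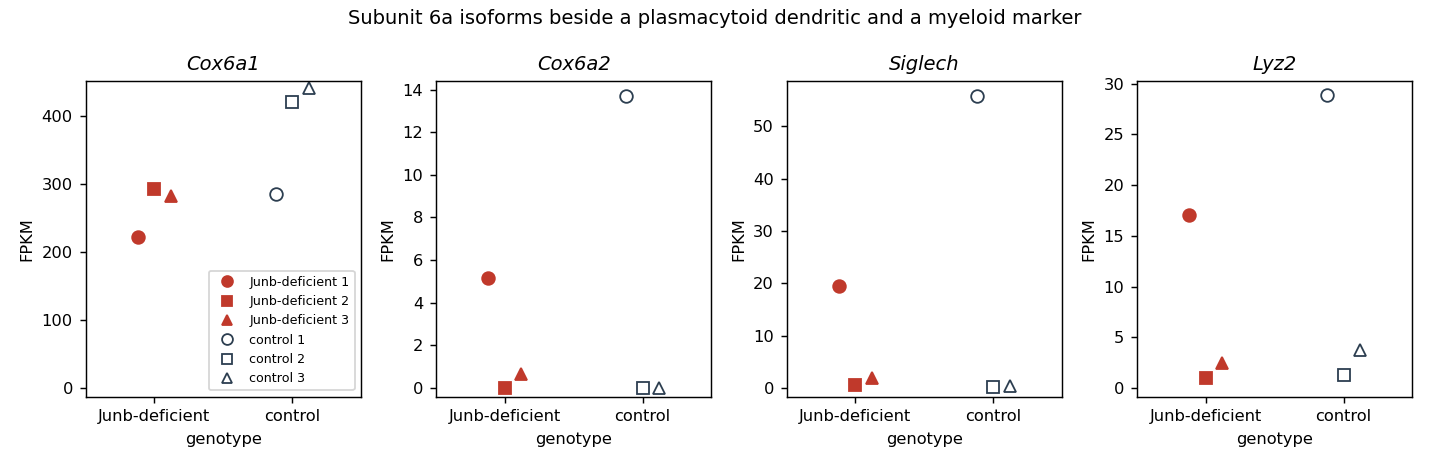
FPKM of *Cox6a1*, *Cox6a2*, *Siglech* (plasmacytoid dendritic cell marker) and *Lyz2* (myeloid marker) in each library, *Junb*-deficient (filled red) left of control (open dark), each panel with its own axis from 0. *Cox6a2* was at 5.15 FPKM in *Junb*-deficient 1 and 13.7 FPKM in control 1, above the other 4 libraries, as were *Siglech* (19.5 FPKM in *Junb*-deficient 1, 55.8 FPKM in control 1) and *Lyz2* (17.1 FPKM in *Junb*-deficient 1, 28.9 FPKM in control 1), while *Cox6a1* was lowest in *Junb*-deficient 1 (222 FPKM).

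The ring of subunit c has 3 genes whose mature proteins are identical and whose targeting peptides differ. By row, *Atp5g3* took 86.4% to 92.3% of their summed FPKM, *Atp5g1* 7.48% to 13% and *Atp5g2* 0.221% to 0.609%. *Atp5g1* was at 16.8, 34.7 and 28.4 FPKM in *Junb*-deficient cells, against 32.5, 45.9 and 47.8 FPKM in controls (-0.68 ± 0.29, limma adjusted p = 0.834). *Atp5g2* was at 0.597, 1.63 and 1.26 FPKM in *Junb*-deficient cells, against 0.631, 1.1 and 1.43 FPKM in controls. The order depends on the copies: with the row of the pseudogene *Gm10039* (189 FPKM, 99.8% identical) counted to *Atp5g1*, that gene took 32.5% to 52% of the summed FPKM of *Atp5g1*, *Gm10039* and *Atp5g3*. *Atp5g2* has copies of its coding sequence with 100% identity, listed at 0, so its low level is uncertain too.

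Within each number, the difference had the same sign in the 3 complexes but not the same size. The median over genes of *Junb*-deficient 1 minus control 1 was -0.08 for complex III, -0.33 for complex IV and -0.10 for ATP synthase. For the libraries numbered 2 it was -0.48, -0.52 and -0.40, and for those numbered 3 it was -0.95, -0.88 and -0.72, in the same order of complexes. Over all genes tested these medians were 0.01, -0.12 and -0.03 for numbers 1, 2 and 3. In 24 of the 40 genes the *Junb*-deficient library was below its control in all 3 pairs, against 22.3% of all genes tested. The number 1 libraries were low for most of these genes in both genotypes: the mean of both divided by the mean of the other 4 libraries was under 1 for 35 of 40 genes, with a median of 0.63, beside 0.97 over all genes.

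Across all 11781 genes tested, which are not independent, that ratio had a Spearman's rho of 0.31 with exon length. Across the 40 genes of the set the rho was 0.08 with exon length, and 0.26 with coding length in the 39 that have one. The ratio had a median of 0.57 over the 26 genes with a coding sequence under 500 bases and of 0.75 over the 13 longer ones, and exceeded 1 for *Atp5b* (1.35), *Atp5d* (1.25) and *Atp5a1* (1.14) among the long genes and for *Cox7c* (1.06) and *Cox6a2* (56.1) among the short ones. The 5 genes called lower all had a coding sequence under 500 bases, and the median difference between genotypes was -0.58 for the short and -0.26 for the long genes. Over all genes tested, the median difference was -0.29 for genes with an exon length under 1000 bases and 0.08 for genes of 4000 bases or more. Removing each library's trend on exon length left 3 of the 40 genes lower, *Cox5b*, *Atp5k* and *Atp5g3*, and 238 of all genes. The medians were then -0.29 for complex III, -0.30 for complex IV and -0.27 for ATP synthase beside -0.00448 for all genes. The part of length in the differences beyond this was not tested.

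**Figure D5:**
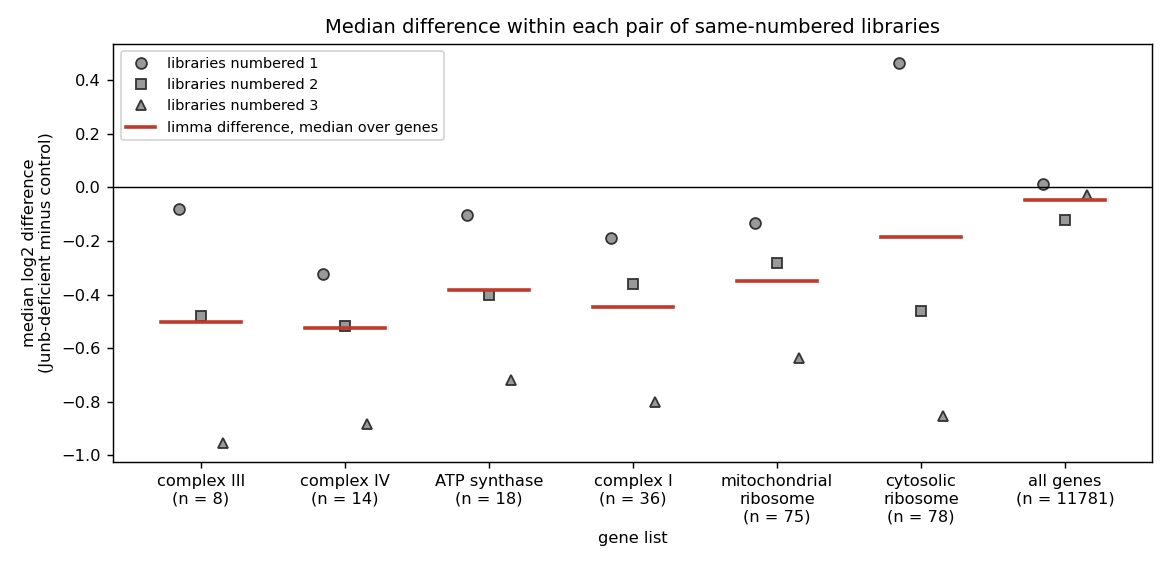
Median log2 difference (*Junb*-deficient minus control) over the genes of each list within each pair of same-numbered libraries (grey circles, squares and triangles for numbers 1, 2 and 3), with the median of the limma differences as a red line. The 3 complexes lie below 0 for each number, from -0.08 to -0.95, and the cytosolic ribosomal proteins lie above 0 for number 1 (0.46) and below it for numbers 2 and 3.

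Other mitochondrial protein genes stood near the 3 complexes. Of 36 complex I subunits, 3 fell and 0 rose, with a median difference of -0.45, and 14 fell with the block. Of 75 mitochondrial ribosomal proteins, 3 fell and 0 rose, with a median of -0.35, and 16 fell with the block. Of 78 cytosolic ribosomal proteins, 0 fell and 0 rose, with a median of -0.18, and 7 fell with the block. Of all genes 2.89% fell, and 7.2% with the block, so that the 3 of 75 and the 7 of 78 lay near the background. No test was made of whether the 3 complexes differ from these lists. Of the 4 complex II subunits 0 passed, with *Sdhb*, the iron-sulfur subunit, nearest to it at 68.8, 72.8 and 72.3 FPKM in *Junb*-deficient cells, against 76.8, 122 and 112 FPKM in controls (limma adjusted p = 0.834). With the block *Sdhb* passed as lower.

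The 4 nuclear subunits on the lists that the name rule left out did not pass in limma, and *Ndufa4* and *2010107E04Rik* passed as lower with the block. *Ndufa4*, now counted as a subunit of complex IV, was at 164, 366 and 282 FPKM in *Junb*-deficient cells, against 241, 512 and 564 FPKM in controls (-0.68, limma adjusted p = 0.839). *Cyc1*, the cytochrome c1 of complex III, was at 51, 53.1 and 57.7 FPKM in *Junb*-deficient cells, against 59.6, 49.4 and 68.7 FPKM in controls, and overlapped. *2010107E04Rik*, a small proteolipid of ATP synthase, was at 208, 613 and 456 FPKM in *Junb*-deficient cells, against 293, 750 and 877 FPKM in controls (-0.58, limma adjusted p = 0.856). *Usmg5*, another small membrane subunit, was at 78.2, 44.6 and 32.4 FPKM in *Junb*-deficient cells, against 40.5, 51.1 and 64.7 FPKM in controls (-0.08, limma adjusted p = 0.970). Its pseudogene *Gm14539*, with 100% identity, averaged 383 FPKM, so the level of *Usmg5* is uncertain. The mobile carrier cytochrome c, *Cycs*, was listed at only 0.404 to 2.05 FPKM, and has 5 near-identical copies of its own, so its level cannot be read from its row.

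Of the subunits encoded in the mitochondrial genome, those with high values showed no difference beyond their spread. *mt-Co1*, the catalytic subunit of complex IV, was at 8368, 10327 and 7221 FPKM in *Junb*-deficient cells, against 6549, 10729 and 11770 FPKM in controls (-0.13, limma adjusted p = 0.969). *mt-Cytb*, the cytochrome b of complex III, was at 3734, 3810 and 2729 FPKM in *Junb*-deficient cells, against 3011, 4240 and 4604 FPKM in controls (-0.20, limma adjusted p = 0.938). *mt-Co2*, *mt-Co3*, *mt-Atp6* and *mt-Atp8* were listed at no more than 11.1 FPKM in any library, and each matches a stretch of nuclear chromosome 1 with 100% identity. *mt-Co3* (0.0886, 3.66 and 1.22 FPKM in *Junb*-deficient cells, 7.74, 6.56 and 3.15 FPKM in controls) and *mt-Atp8* (0.982, 0 and 5.52 FPKM in *Junb*-deficient cells, 8.26, 9.81 and 6.65 FPKM in controls) passed as lower (limma adjusted p = 0.834 for both), and with the block *mt-Atp6* did too. These 4 rows are uncertain, since their sequence cannot be told apart from that of chromosome 1.

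Among assembly factors and regulators few passed. Over all genes tested 1.67% rose and 2.89% fell, and with the block 3.58% rose and 7.2% fell. Of 14 complex IV assembly factors 1 rose and 0 fell: *Cox15*, which makes the heme A of the enzyme, was at 11.6, 13.6 and 11.4 FPKM in *Junb*-deficient cells, against 9.33, 5.74 and 8.24 FPKM in controls (0.61, limma adjusted p = 0.834). The copper carrier *Cox17* was at 94.6, 163 and 132 FPKM in *Junb*-deficient cells, against 139, 270 and 253 FPKM in controls (-0.74, limma adjusted p = 0.834). With the block *Cox17*, *Cmc1* and *Cox16* passed as lower, 3 of the 14. None of the 4 complex III factors, 3 ATP synthase factors or 3 carriers of phosphate and adenine nucleotides passed, and with the block only *Tmem70*, an ATP synthase factor, did (lower). In the list of carriers *Slc25a4*, an ADP/ATP carrier, had the smallest p at 37.3, 34.3 and 33.9 FPKM in *Junb*-deficient cells, against 45.6, 46.5 and 49.9 FPKM in controls, a difference of -0.42 short of the threshold. Of 11 regulators of respiratory genes, 0 passed, and with the block *Tfam* and *Polrmt*, the mitochondrial RNA polymerase, passed as lower. *Tfam*, which packs and transcribes mitochondrial DNA, had the smallest p at 36.7, 53.3 and 54.1 FPKM in *Junb*-deficient cells, against 49.5, 90.4 and 98.6 FPKM in controls (-0.68, limma adjusted p = 0.834). *Nrf1* (0.18) and *Gabpa* (0.18), factors known to bind promoters of respiratory chain genes, had differences above 0 that did not pass.

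The promoters of the subunit genes were searched for the motifs of those factors and of AP-1, since JunB is a subunit of AP-1. RefSeq windows of 300 bases (250 before and 50 after the start, GRCm38.p6) were found for 31 of the 40 genes. The shares set beside them are over all genes with a window, expressed in these cells or not. No share is given over the 11781 genes tested, so expressed genes were not compared with expressed genes. The NRF1 half-site GCGCATG, on either strand, stood in 7 of the 31 (22.6%), against 4.41% of all 27025 genes with a window. The ETS motif CCGGAAG, of the kind GABPA binds, stood in 10 (32.3%, against 9.93%), and the YY1 motif AAGATGG in 5 (16.1%, against 7.28%). The AP-1 motif TGANTCA stood in 4 (12.9%, against 8.97%), namely *Atp5c1*, *Atp5g1*, *Cox7c* and *Uqcrh*. None of these 4 was among the 5 genes called lower, of which *Uqcrb* had no window. With the block *Atp5g1* passed as lower, *Cox7c* did so only with copy rows summed, and *Atp5c1* and *Uqcrh* did not pass. Both groups are too small for an overlap to be read, and whether the motif goes with the calls was not tested. The windows of *Atp5k* and *Cox5b*, the called genes with a match, are shown with the matches in capitals, none of the 4 motifs overlapping another. *Atp5k* (chr5:108434350-108434649, minus strand) has the NRF1 half-site on both strands, as 1 palindrome, and then the ETS motif on the other strand, and *Cox5b* (chr1:36691237-36691536, plus strand) has 1 NRF1 half-site. The windows of *Cox5a* and *Atp5g3* hold none of the 4. A match of letters is a description, and says nothing of binding in these cells.
Atp5k: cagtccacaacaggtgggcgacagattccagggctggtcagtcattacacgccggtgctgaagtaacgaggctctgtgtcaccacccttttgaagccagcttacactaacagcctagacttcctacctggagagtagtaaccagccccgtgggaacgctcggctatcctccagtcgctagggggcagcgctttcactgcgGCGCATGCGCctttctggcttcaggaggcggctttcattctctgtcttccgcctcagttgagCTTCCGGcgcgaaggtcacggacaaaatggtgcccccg
Cox5b: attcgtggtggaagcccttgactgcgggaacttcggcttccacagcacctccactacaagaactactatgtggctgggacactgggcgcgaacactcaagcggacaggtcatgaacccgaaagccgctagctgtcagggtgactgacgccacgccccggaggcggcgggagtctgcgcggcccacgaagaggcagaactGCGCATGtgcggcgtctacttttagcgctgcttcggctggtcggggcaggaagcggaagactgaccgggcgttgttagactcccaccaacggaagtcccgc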

How the data were processed

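Polyadenylated RNA of 6 libraries was sequenced with a strand-specific kit. The deposited values are FPKM, made by the authors with TopHat2 (2.2.1) and Cufflinks against mm9, as the submitters' processing notes name them. The sources used here do not say how strand or reads with several matches were treated, or whether libraries were scaled to each other. Identifiers were looked up in GENCODE vM1 (37305 of 37305 found) for positions and lengths. The names of the number 1 columns match their samples by elimination only. The 11781 genes whose FPKM averaged at least 1 were compared on log2(FPKM + 1) by limma 3.58.1 in R 4.3.3, 2-sided, with a trend of variance on level and Benjamini-Hochberg adjustment over all of them. The pseudocount of 1 understates differences of low genes. With 3 libraries per genotype an exact test cannot give a p below 0.1, so none was made for single genes.

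The genes and gene lists were chosen with earlier results of these data known. Every gene of the set was to be named, with each library's value for called genes, for the 2 highest and the 2 of smallest p in each complex and for paired isoforms. Genes of other lists were to be named where called or of smallest p. Library numbers were taken to pair the samples because deviations from the genotype mean correlated for all 3 same-numbered pairs (0.57, 0.42 and 0.24, across 11781 genes, which are not independent). Numbers 2 and 3 were not clearly told apart, as *Junb*-deficient 2 correlated with control 3 (0.41) nearly as with control 2, and *Junb*-deficient 3 with control 2 at 0.13. Copies were searched with blastn 2.17.0 in the NCBIM37 assembly (mm9). The test was tried on simulated data. Alternatives were a pseudocount of 0.1, no filter or a mean of at least 5, median-ratio, quantile and total scaling, no trend, the block, a term for the lane suffix of the sample names (lacking in number 1), a length correction (loess, span 0.5), and libraries left out. Summing copy rows was added after seeing the data. Promoter windows came from RefSeq.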

Additional observations from a re-analysis of the deposited data

How the results depend on the processing

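With the replicate block, 17 of the 40 genes were lower and 1 higher, and 848 of all genes were lower and 422 higher. With a term for the lane suffix 16 of the 40, 840 and 415 were. With the block on length-corrected values 9 of the 40 were lower and 1 higher, with 483 of all genes lower and 396 higher. Leaving out both libraries numbered 1 gave 26 of the 40 lower (1423 and 798 of all genes lower and higher), and 14 lower and 1 higher with length correction too (828 and 769). Summed copy rows with the block gave 16 lower and 1 higher (843 and 423). Lower counts came from quantile scaling (3 of the 40 and 262 of all genes), scaling to 1 total (2 of the 40 and 100 of all genes) and length correction (3 of the 40 and 238 of all genes). At a mean of at least 5, 131 of all genes were higher. Why these settings differ was not tested.

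Leaving out each library gave 2 to 27 of the 40 genes lower and 0 to 1 higher, and 203 to 1500 of all genes lower and 92 to 789 higher. The medians ran from -0.799 to -0.254 for complex III, from -0.836 to -0.353 for complex IV and from -0.728 to -0.244 for ATP synthase, and from -0.0732 to -0.0192 for all genes. The median of all genes was 0.00913 after quantile scaling and 0.194 after scaling to 1 total.

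Medians of the 3 complexes stayed below 0 under every setting. The block, the term for the lane suffix and the fit without a trend leave each difference unchanged, so they could not move these medians. Signs of single genes near 0 turned. On scaling to 1 total, *Uqcrc1* came to 0.0267, *Atp5d* to 0.00496, *Atp5b* to 0.0627, *Cox4nb* to 0.131, *Atp5a1* to 0.177, *Atp5sl* to 0.215 and *Cox7c* to 0.17, and on quantile scaling *Atp5b* came to 0.046, *Atp5a1* to 0.184 and *Atp5sl* to 0.0325. Median-ratio scaling gave *Atp5sl* 0.0043, and length correction, with and without the block, gave *Atp5sl* 0.0387, *Cox7c* 0.137 and *Cox6a2* 0.0456. *Cox6a2* came to 0.517 at pseudocount 0.1, to 0.371 without both libraries numbered 1 and to 0.682 with length correction as well. *Atp5l* came to -0.0567 without both of those libraries and to -0.588 with copy rows summed, with and without the block. With each library left out, *Atp5sl* ran from -0.309 to 0.106, *Cox7c* from -0.451 to 0.107, *Cox6a2* from -0.922 to 1.12, *Atp5a1* from -0.169 to 0.0347, *Cox4nb* from -0.226 to 0.0141, *Atp5g2* from -0.0926 to 0.267 and *Atp5l* from -0.258 to 0.366.

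With 3 libraries a genotype and no read counts, differences of low genes cannot be judged against counting error.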
